A study of Ovis aries with 16 samples.

Results

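The hormone genes of the anterior pituitary were examined in the hypothalamus of fetal sheep. They were taken as every array probe named LHB, FSHB, TSHB, CGA, PRL, GH or GH1, or carrying an accession with a current symbol among these. GH and GH1 count as the same gene. Of the 6 genes asked for, 5 were found, namely LHB, FSHB, CGA, PRL and GH. They had 9 of the 15008 probes on the array, and 972 gene symbols were named on the array in all. CGA was found through its accession, since the array design gives it a locus name. TSHB was not found under that name, but 1 probe is described on the array as beta-thyrotropin. It was added from its description after the files had been seen and is called TSHB below.

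Suffolk fetuses in late gestation were studied in 4 groups, through catheters placed in the fetus and the ewe. In the normoxia control group (NC, n = 3) the fetus received saline intravenously before 30 min of normoxia, and in the normoxia plus ketamine group (NK, n = 4) it received ketamine, an anesthetic that blocks a class of glutamate receptors. The same injections came before 30 min of hypoxia in the groups called hypoxia control (HC, n = 5, saline) and hypoxia with ketamine (HK, n = 4), for which nitrogen was led into the trachea of the ewe. All tissue was collected 24 h after the stimulus began, following 23.5 h of recovery in normoxia, so that every group had carried catheters and been through the same recovery. Every array was a 1-color Agilent array and held RNA of 1 fetus, and p-values therefore measure the spread between fetuses. The paper assigned normoxia or hypoxia by pregnancy, and most fetuses were twins, but which of them shared a ewe is not given in the labels. The tests treat every fetus as independent, so likeness between fetuses of the same ewe is not allowed for in the p-values. The hypothalamus was taken as a block of tissue that reached the caudal edge of the median eminence, where the brain meets the pituitary stalk.

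The anterior pituitary makes glycoprotein hormones, which pair a common alpha subunit with a beta subunit of their own, and the single-chain hormones prolactin and growth hormone. CGA encodes the common alpha subunit, and LHB, FSHB and TSHB encode the beta subunits of luteinizing hormone, follicle-stimulating hormone and thyrotropin. The pars tuberalis, a sheet of pituitary cells around the stalk and the median eminence, is known for CGA and TSHB expression, whereas growth hormone and prolactin come mainly from the pars distalis below it. In bulk tissue such as this, fewer cells of a type and less RNA per cell cannot be told apart.

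The probes of LHB, GH, TSHB and PRL are shown because the results turn on how far the probes of a gene can stand for each other. The brightest LHB probe (A_70_P039602) starts at base 472 of the accession given on the array and closes with 27 bases that run from the polyadenylation signal AATAAA to a run of 6 A, both in capitals, while the other LHB probe (A_70_P039601) starts at base 138 and holds neither. Of all probes, 5.63% held AATAAA on the printed strand, 1.09% closed with 6 or more A, and 0.366% had both. The 2 GH probes (A_70_P039746 and A_70_P039747) share 59 of their 60 bases, in capitals, and are thus not independent measurements. The 2 PRL probes (A_70_P030242 and A_70_P030241) share the 20 bases printed in capitals, and A_70_P030241 also shares a run of 18 bases with a probe of PRP1, a placental relative of prolactin.
LHB, brightest probe, closing bases: AATAAAgacttctcaagctgcAAAAAA
LHB, other probe: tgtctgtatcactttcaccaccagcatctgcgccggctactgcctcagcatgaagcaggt
GH, A_70_P039746: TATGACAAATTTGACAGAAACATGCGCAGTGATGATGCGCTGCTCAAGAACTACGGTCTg
GH, A_70_P039747: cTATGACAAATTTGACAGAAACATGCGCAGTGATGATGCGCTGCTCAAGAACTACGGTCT
TSHB by description, A_70_P017161: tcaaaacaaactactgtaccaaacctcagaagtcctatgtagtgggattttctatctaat
PRL, bases shared by both probes: ACTTCTCTGAGCTTTATAGC

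On each array, a share of 71.7% to 80.6% of the probes gave a signal well above background, and Pearson correlations between arrays ranged from 0.9566 to 0.987. Levels are log2 signals after subtraction of that array's 75th percentile, which lay between 1248 and 1597 intensity units. The lowest signal of a probe well above background lay between -6.61 and -5.49 on this scale. Testing took in the 12249 probes with such a signal on 3 arrays or more, among them 7 of the 9 probes found by name and the TSHB probe. The arrays came from 2 slides of 8, and each slide held all 4 groups.

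The clearest feature of these genes was that CGA varied widely from fetus to fetus within every group. LHB was steady by its brightest probe, though not by its other one, which was far dimmer. PRL and FSHB were highest on the same array, and GH was well above background on 1 array by 1 of its probes. No difference between groups in any of them passed limma's test after adjustment over all tested probes, and the only unadjusted calls were for the brightest LHB probe.

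**Figure D1:**
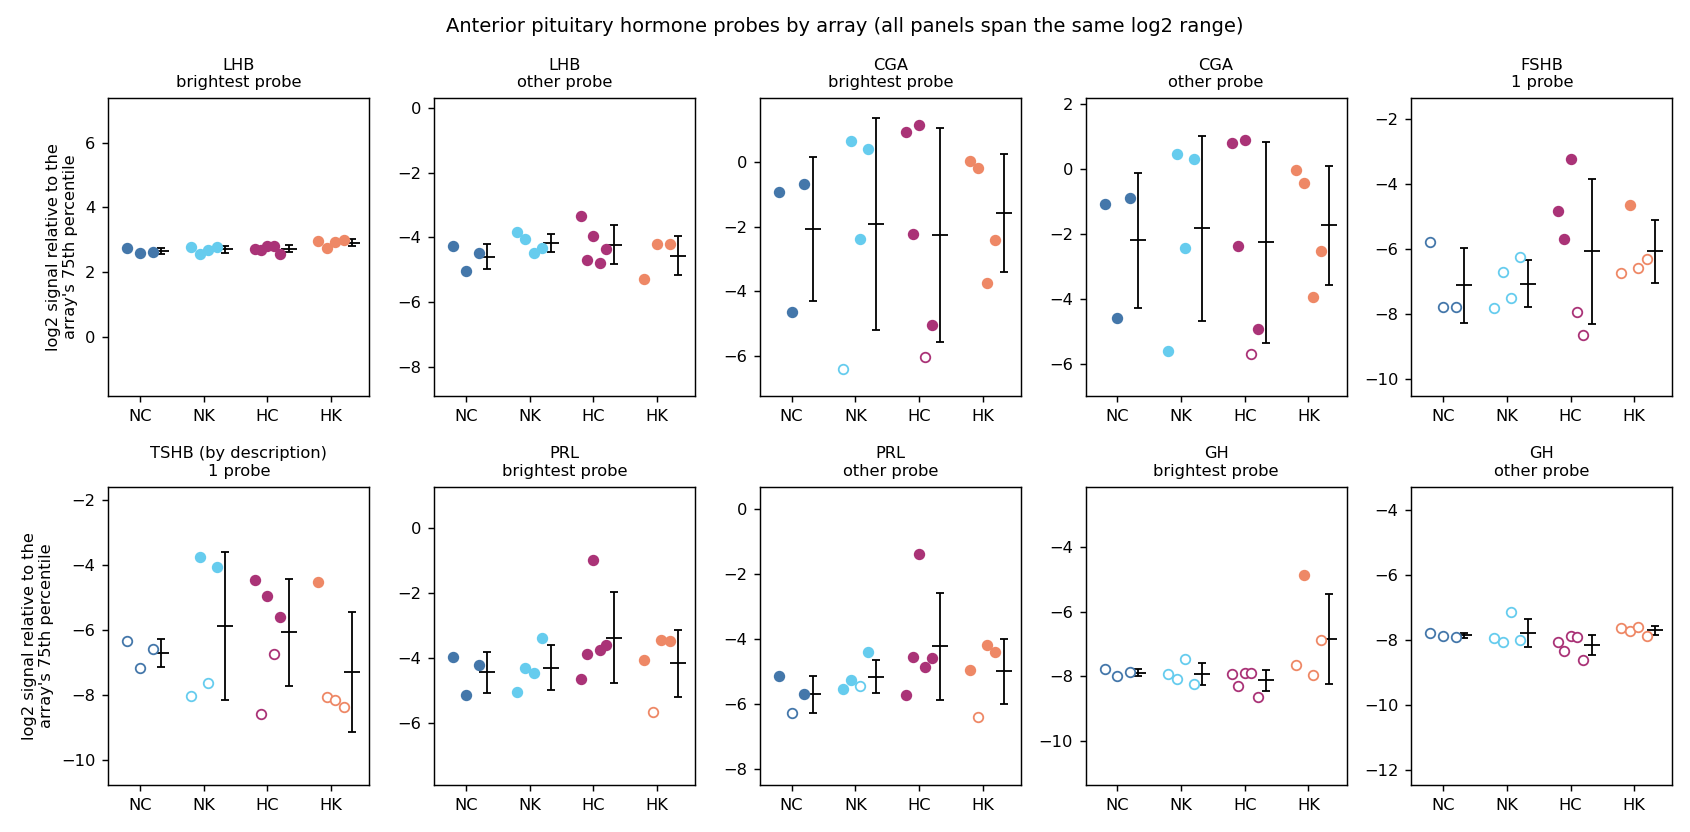
Log2 level, with the 75th percentile of each array at 0, for the 10 hormone probes, by group. Each point is 1 array, filled where the probe was well above background and open where it was not, and the bars beside the points are the group mean ± SD. Every panel spans the same log2 range. The scatter of the brightest CGA probe from -6.38 to 1.12 can thus be read against that of the brightest LHB probe from 2.55 to 3.00.

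CGA, the common alpha subunit, was well above background on 14 of 16 arrays. In NC its brightest probe (A_70_P039421) read -0.92, -4.64 and -0.67 in NC1, NC2 and NC3. In NK it read -6.38, 0.65, -2.37 and 0.41 in NK1 to NK4. Every group thus held arrays far apart, and NK1 was not well above background. In HC the 5 arrays read 0.93, -2.23, 1.12, -6.03 and -5.03, and HC4 was not well above background. In HK they read 0.01, -0.18, -3.74 and -2.40. Among the 14 arrays well above background, the highest, HC3, and the lowest, HC5, differed by 6.14 log2 units, or 70.6-fold in signal, and all 4 groups overlapped.

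The within-group SD of this probe was 2.82 log2 units, the fifth largest of 12249 tested probes, where the median was 0.24. The second CGA probe (A_70_P039422) had an SD of 2.61 and ranked 11 of 12249. Levels of the 2 probes rose and fell together over the 16 arrays, with r = 0.997 and rho = 0.997 (permutation p = 1e-05 for both, the smallest p that 100000 resamples can give, and adjusted p = 1.5e-05 over the 3 genes with a pair of tested probes). The probes share no run of more than 6 bases, so the scatter of CGA was measured by separate sequences.

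**Figure D2:**
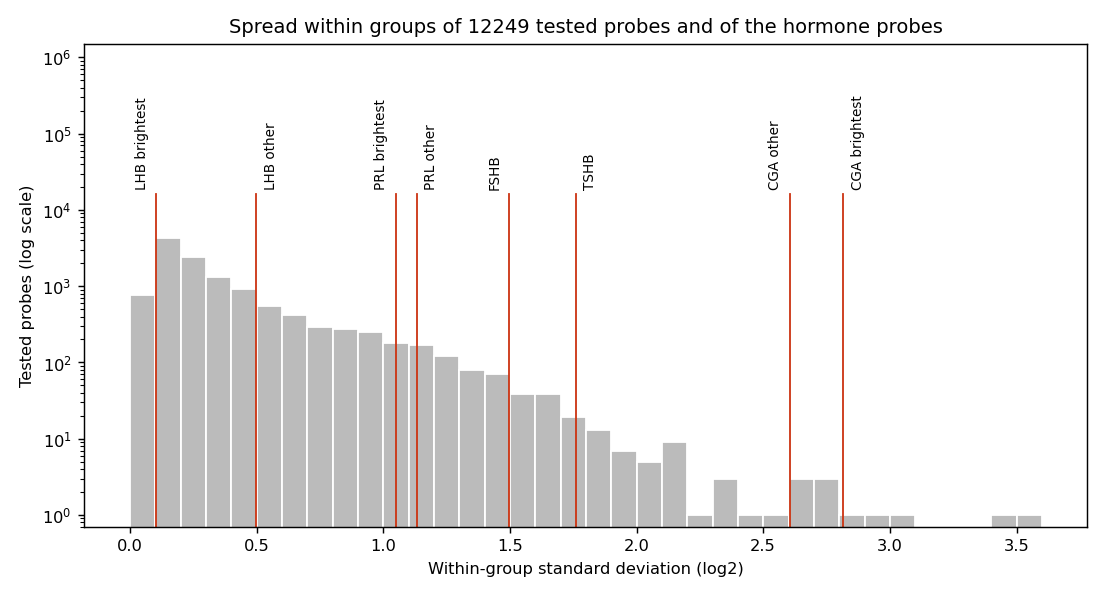
Histogram of the within-group SD, in log2 units, of the 12249 tested probes, with the number of probes on a log scale and a red line for each tested hormone probe. The CGA lines at 2.61 and 2.82 stand in the far right tail, and the brightest LHB probe, at 0.10, stands at the left edge.

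Group means of CGA did not differ beyond this scatter. They were -2.08 ± 2.22 in NC (SD, n = 3), -1.92 ± 3.27 in NK (SD, n = 4), -2.25 ± 3.29 in HC (SD, n = 5) and -1.58 ± 1.81 in HK (SD, n = 4). The difference of HC from NC was -0.17 log2 units, with a 95% confidence interval from -4.30 to 3.96 and an adjusted p of 0.985 in limma. HK exceeded HC by 0.67 (from -3.13 to 4.47) and NK by 0.35 (from -3.66 to 4.35). All 4 intervals reached more than 3 log2 units to either side of 0, so large differences of either sign remain within them. Within slides the sign turned, since the log2 difference of HC from NC was 2.13 on slide 1 and -2.64 on slide 2, where NC had 1 array.

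The named genes with levels most like CGA over the 16 arrays, out of 819 compared, were GHRH (r = 0.837), POMC (r = 0.782), AGRP (r = 0.774), NPY (r = 0.751) and FSHB (r = 0.711). These are a description of genes picked for their likeness, with no test. GHRH, which encodes growth hormone-releasing hormone, POMC, the precursor of melanocortin peptides, and the appetite peptide genes AGRP and NPY are all known from neurons of the arcuate nucleus, which lies beside the median eminence. POMC is also expressed by corticotrophs and melanotrophs of the pituitary. Within slides the 5 correlations lay between 0.711 and 0.908, and as deviations from the group means between 0.764 and 0.862.

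The likeness showed most plainly at the low end of CGA. NC2, NK1, HC4 and HC5 had the 4 lowest levels of CGA, and the same 4 arrays had the 4 lowest levels of each of GHRH, POMC, AGRP, NPY and FSHB. On these arrays GHRH read -4.06, -4.71, -4.44 and -3.70, and on every other array it read -2.91 or higher. AGRP, which was not well above background on NC2, read -5.81, -3.85, -3.04 and -4.65 there and -2.32 or higher elsewhere. FSHB was not well above background on any of them, and the next array, NC3, lay just above them at -7.78. The 4 arrays belong to NC, NK and HC and to both slides. Over the remaining 12 arrays the 5 correlations lay between 0.41 and 0.494. Leaving out the arrays lowest in CGA also narrows its range, which by itself lowers r, so the fall cannot show that the 4 arrays carried the likeness.

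The other tested genes of the neuropeptide list had lower correlations with CGA. Of 10 tested genes on the neuropeptide list, the 6 besides GHRH, POMC, AGRP and NPY had r between -0.372 and 0.298 with CGA. They included SST, which encodes somatostatin (r = -0.221), OXT, for oxytocin (r = -0.189), and PMCH, for melanin-concentrating hormone (r = -0.372). GNRH1 (r = 0.298), GAL (r = 0.257) and TAC1 (r = 0.149) were on the positive side. On the gonadotropin axis list, BMP6 (r = 0.685) and BMP4 (r = 0.604) came closer to CGA, and TAC3, for neurokinin B, had r = 0.387. The likeness to CGA was thus not confined to the neuropeptide genes named above. AQP4, the water channel of astrocytes, had r = 0.0694.

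**Figure D3:**
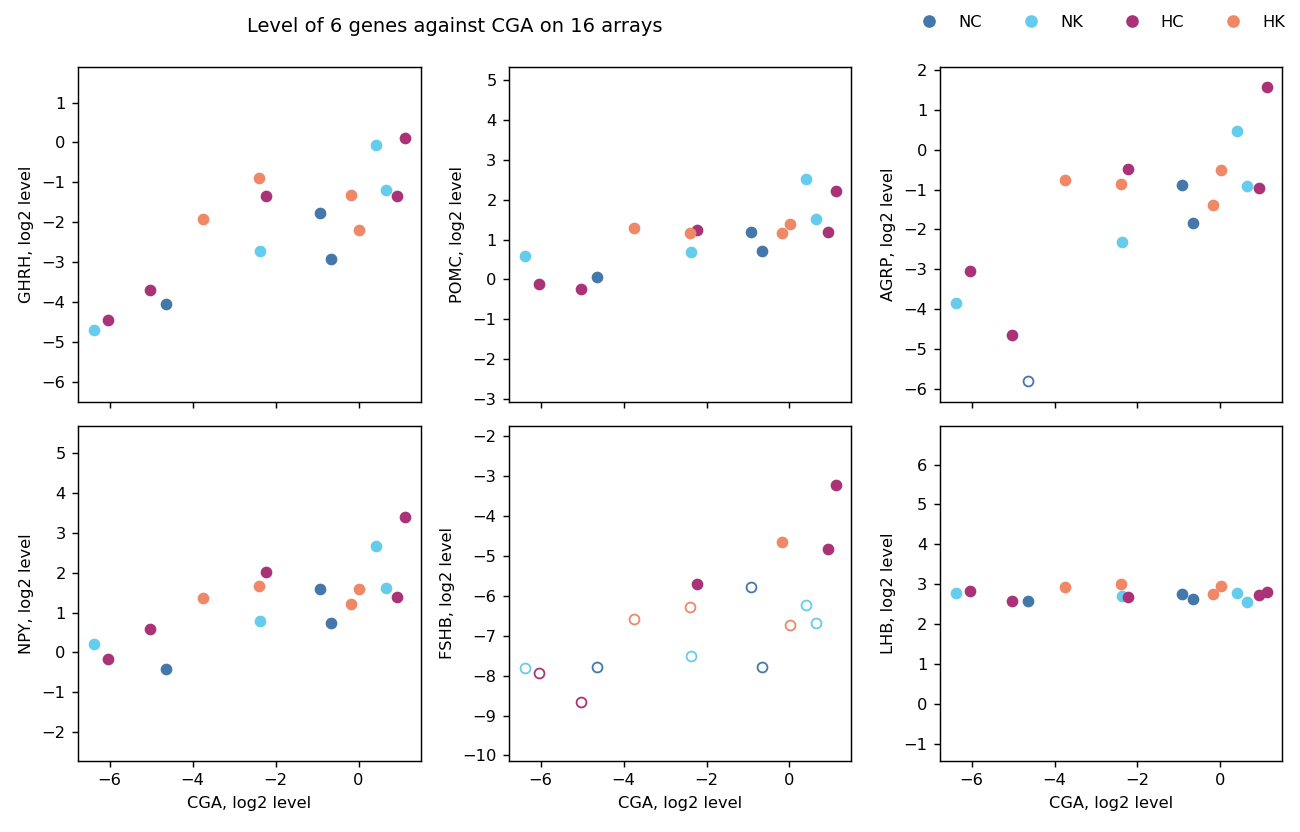
Log2 levels of GHRH, POMC, AGRP, NPY, FSHB and LHB against CGA on the 16 arrays, coloured by group, with open points where the gene was not well above background. In each of the first 5 panels the 4 arrays lowest in CGA, at -4.64 or below, are also the lowest in the other gene. LHB, by its brightest probe, is flat between 2.55 and 3.00. The vertical axes span the same log2 range.

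LHB, the beta subunit of luteinizing hormone, was well above background on all 16 arrays by its brightest probe. It read 2.76, 2.58 and 2.62 in NC1, NC2 and NC3. In NK it read 2.79, 2.55, 2.70 and 2.79, and in HC 2.73, 2.68, 2.81, 2.82 and 2.57. In HK it read 2.95, 2.76, 2.94 and 3.00, so that HK1, HK3 and HK4 were the 3 highest of the 16 arrays and HK2 lay inside the ranges of NK and HC. Its within-group SD of 0.10 was smaller than that of most probes, with 7.67% of tested probes below it.

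Group means of LHB ran from NC (2.65 ± 0.09, SD, n = 3) through NK (2.71 ± 0.11, SD, n = 4) and HC (2.72 ± 0.10, SD, n = 5) to HK (2.91 ± 0.10, SD, n = 4), and the first 3 did not differ beyond their spread. HK exceeded HC by 0.19 ± 0.08 log2 units (SE), or 1.14-fold, with an unadjusted p of 0.0319 and an adjusted p of 0.698 in limma. In the exact permutation test, 6 of 126 rearrangements gave a difference as large (two-sided p = 0.0476). HK exceeded NK by 0.21 ± 0.09 (SE), or 1.16-fold, with an unadjusted p of 0.0284 and an adjusted p of 0.496 in limma, and 6 of 70 rearrangements were as large (exact p = 0.0857). Adjusted over the 20 permutation tests of 5 genes and 4 comparisons, both exact p-values came to 0.857.

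The same direction held within each slide, with HK above HC by 0.15 and 0.24 and above NK by 0.19 and 0.23. The unadjusted call against HC was lost with quantile normalization (difference 0.16) and with normexp background correction followed by quantile normalization (0.14), called normexp below. The deposited value table (0.14) and a model of only the HK and HC arrays lost it too. It was also lost on leaving out any 1 of HC2, HC5, HK1, HK3 or HK4, where the difference stayed between 0.15 and 0.18. The call against NK was lost with normexp (0.15), with the deposited table (0.15), with only HK and NK in the model and on leaving out any 1 of NK2, NK3, HK1, HK3 or HK4.

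The second LHB probe did not follow the first and was far dimmer. Its mean was -4.36 over 15 arrays, against 2.75 over 16 arrays for the brightest probe. Which of the 2 levels stands for the LHB transcript was not tested. It read -4.28, -5.03 and -4.47 in NC, -3.84, -4.05, -4.47 and -4.34 in NK, and -3.33, -4.70, -3.96, -4.80 and -4.35 in HC. In HK it read -5.27, -4.20 and -4.22 in HK1, HK3 and HK4, and the HK2 spot was marked as an outlier and left out. All 15 values were well above background and the groups overlapped. They covered a 3.83-fold range, and the within-group SD of 0.50 was larger than that of 79% of tested probes. Its differences had the opposite sign, at -0.34 ± 0.34 (SE) for HK against HC and -0.39 ± 0.36 (SE) for HK against NK, with adjusted p of 0.856 and 0.849 in limma. HK1, the only HK array of slide 1 with a value, set this sign, since HK differed from HC by -1.25 on slide 1 and by 0.16 on slide 2, and from NK by -1.32 and 0.19. Over 15 arrays the levels of the 2 LHB probes had r = -0.0273 (permutation p = 0.925, adjusted p = 0.925) and rho = 0.0821 (permutation p = 0.775, adjusted p = 0.775). The LHB difference therefore rests on the probe that closes with the polyadenylation signal, and what the sequence contributed to its signal was not tested.

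The named genes most like the brightest LHB probe were YWHAE (r = 0.76), BBC1 (r = 0.752), pgc1 (r = 0.742), CHCHD3 (r = 0.718) and LPAAT (r = 0.712), in the names of the array. None is a pituitary hormone gene. The brightest LHB probe had r = 0.0218 with CGA, the subunit that LHB pairs with (rho = -0.0618, permutation p = 0.937 and 0.822). Over all 16 arrays this LHB probe stayed within 1.37-fold.

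FSHB, the beta subunit of follicle-stimulating hormone, was well above background on 4 arrays, HC1, HC2, HC3 and HK2. In HC it read -4.82, -5.70, -3.22, -7.93 and -8.65, and in HK -6.73, -4.65, -6.59 and -6.29. None of the NC arrays, at -5.78, -7.79 and -7.78, and none of the NK arrays, at -7.80, -6.69, -7.51 and -6.24, was well above background. HC3 was the highest of all arrays, and HC5 the lowest. The HC mean of -6.06 ± 2.23 (SD, n = 5) was below the limit that the NC arrays set, -5.89, so no fold difference is given, nor for HK against NK, where the limit was -5.92. The fitted difference of HC from NC was 1.05 ± 1.02 (SE, adjusted p = 0.835 in limma), and 0.34 without HC3. The named genes most like FSHB were GHRH (r = 0.807), VEGFR-1 (r = 0.792), NPY (r = 0.774), AGRP (r = 0.768) and POMC (r = 0.732), which apart from VEGFR-1 are the genes most like CGA as well.

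TSHB, the beta subunit of thyrotropin, was well above background on 6 arrays. In NC it read -6.34, -7.17 and -6.60, all not well above background. In NK it read -8.05, -3.76, -7.64 and -4.05, and in HC -4.46, -8.60, -4.94, -6.74 and -5.60. In HK it read -4.52, -8.07, -8.17 and -8.38, so that HK1 stood alone above background in its group. The 6 arrays above background were NK2, NK4, HC1, HC3, HC5 and HK1, and groups overlapped throughout. The NK mean of -5.88, with 2 of 4 arrays well above background, lay at the limit set by NC, -5.89. The HC mean of -6.07 was below this limit, so no fold difference is given for either. No comparison was called (smallest adjusted p = 0.82 in limma). The named genes most like TSHB were NEUROD1 (r = 0.647), TNNC2 (r = 0.605), CGA by its second probe (r = 0.596), IGFR1 (r = 0.579) and SMAD1 (r = 0.554).

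PRL, which encodes prolactin, was well above background on 15 of 16 arrays by its brightest probe. It read -3.97, -5.16 and -4.21 in NC and -5.05, -4.32, -4.48 and -3.39 in NK. In HC it read -4.65, -3.89, -0.98, -3.77 and -3.59, and in HK -4.08, -5.66, -3.46 and -3.48. HC3 stood far above every other array, none of which exceeded -3.39, and HK2 was not well above background. The second PRL probe put HC3 highest as well, at -1.39 against -4.20 or lower elsewhere, and the 2 probes had r = 0.975 and rho = 0.962 (permutation p = 1e-05 and adjusted p = 1.5e-05 for both).

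No group difference in PRL was called. HC averaged -3.37 ± 1.40 (SD, n = 5) and NC -4.45 ± 0.63 (SD, n = 3), a difference of 1.07 ± 0.72 (SE, adjusted p = 0.75 in limma) that came to 0.47 without HC3. HK averaged -4.17 ± 1.03 (SD, n = 4), which was 0.80 ± 0.66 (SE) below HC (log2 difference -0.80, adjusted p = 0.825 in limma) and 0.20 below it without HC3 (log2 difference -0.20). NK averaged -4.31 ± 0.69 (SD, n = 4).

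HC3 held the highest level of more genes than PRL. Of 44 tested genes on the lists of pituitary, hypothalamic and other markers, 11 had their highest level on HC3, the most of any array, against 8 on NK4. Besides PRL, CGA and FSHB these were GNRH1, which encodes gonadotropin-releasing hormone, TAC3, for neurokinin B, and GHRH, GAL, TSHR, AGRP, NPY and GFAP. FSHB, GHRH, AGRP and NPY are also among the genes most like CGA, so they are not separate evidence on HC3. The share of all tested probes highest on HC3 is not given here, so whether 11 of 44 is unusual was not tested. TTR, a transcript known from the choroid plexus, was at its lowest on HC3 (-2.64, against -1.55 or higher elsewhere), as were HBB, a globin of blood, AQP4 and CRHR1. The 2 astrocyte genes thus lay at opposite ends on HC3, GFAP at its highest and AQP4 at its lowest. The part of what these genes mark in the PRL level of HC3 was not tested. The named genes most like PRL were HOXA7 (r = 0.881), TAC3 (r = 0.823), BRS3 (r = 0.812), NOS2 (r = 0.795) and GRP (r = 0.78), and without HC3 these correlations lay between 0.556 and 0.765.

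GH, which encodes growth hormone, the product of the most abundant cells of the pars distalis, was near background. The brightest of its probes was well above background on HK2 (-4.87) and on no other array, where it lay between -8.62 and -6.89. The other GH probe, of nearly the same sequence, was well above background on no array and ranged from -8.61 to -7.12. On HK2 it read -7.71. Neither was tested.

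Across the 20 comparisons of the 5 tested genes with their brightest probes, 2 were called at an unadjusted p under 0.05, both for LHB. The shares of all tested probes called in this way by limma were 8.15% for HC against NC, 1.09% for NK against NC, 7.04% for HK against HC and 8.69% for HK against NK. Among the 4 genes found by name, 1 was called in HK against HC and 1 in HK against NK, counts too small to set against those shares. After adjustment no probe passed in the first 3 of these comparisons (0%), where 998, 133 and 862 had an unadjusted p under 0.05, and 1 of 12249 passed in HK against NK (0.00816%), which was none of these genes. The median difference of the 4 genes was 0.56, 0.10, 0.10 and 0.28 in the order above, beside -0.03, 0.02, 0.03 and -0.01 over all tested probes.

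**Figure D4:**
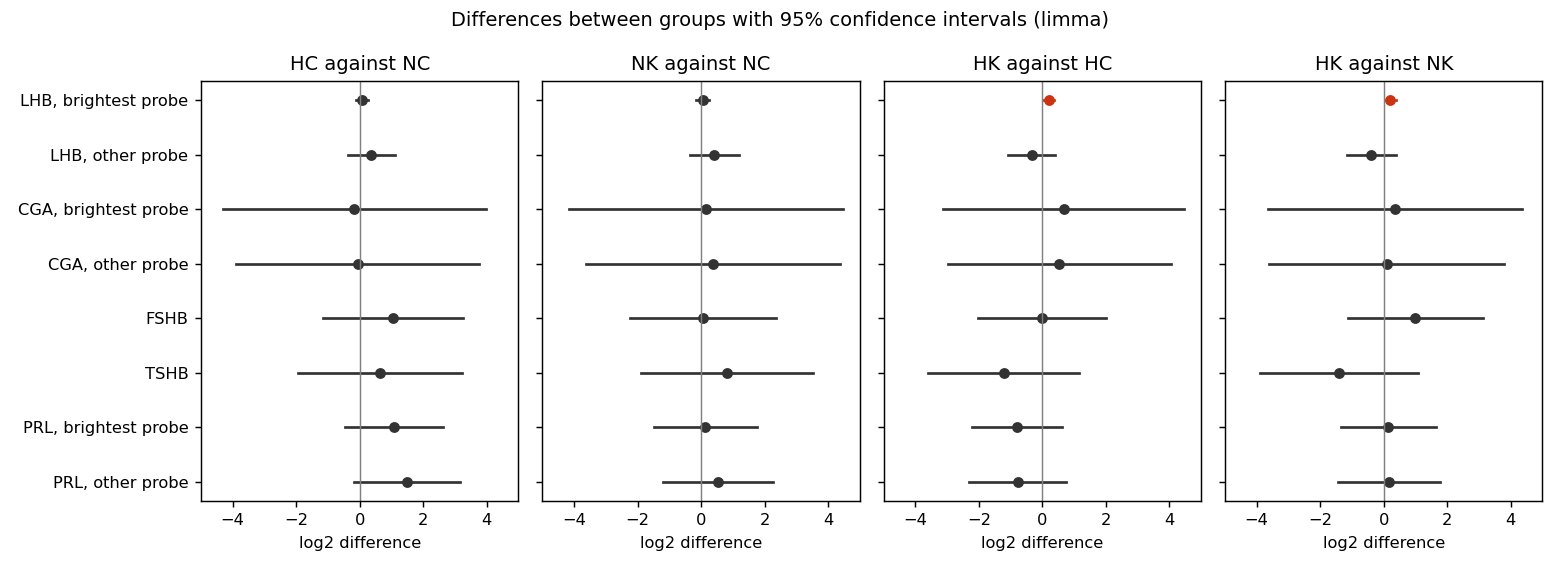
Log2 differences between groups with 95% confidence intervals from limma for the 8 tested hormone probes in 4 comparisons, called differences (unadjusted p under 0.05) in red. The brightest LHB probe is called in HK against HC (0.19) and HK against NK (0.21) with narrow intervals, its other probe lies on the opposite side of 0 in both, and the intervals of the brightest CGA probe reach more than 3 log2 units to either side of 0.

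The ketamine difference after hypoxia was also set against the ketamine difference after normoxia. This interaction was 0.14 ± 0.12 (SE) for LHB, 0.52 ± 2.68 for CGA, -0.06 ± 1.43 for FSHB, -2.04 ± 1.67 for TSHB and -0.93 ± 1.00 for PRL on the log2 scale. None was called, where 3.8% of all tested probes were called unadjusted and 0% adjusted. The test of any difference among the 4 groups called the brightest LHB probe unadjusted (unadjusted p = 0.0483, adjusted p = 0.629 in limma), where 7.86% of tested probes were called and 0% after adjustment. With slide as a term in the model the LHB call was lost, with an adjusted p of 0.576 in limma.

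Whether the hormone genes varied together was asked for the 10 pairs of the 5 tested genes over the 16 arrays. CGA and FSHB had r = 0.711 (permutation p = 0.0019, adjusted p = 0.019 over the 10 pairs) and rho = 0.732 (permutation p = 0.00171, adjusted p = 0.0171). Without NK1 and HC4, the arrays farthest from the median of CGA, r was 0.67. Within the slides of 8 arrays r was 0.72 (exact permutation p = 0.0451) and 0.711 (exact permutation p = 0.0363), and for deviations from the group means it was 0.764. FSHB was not well above background on 12 of the arrays, which limits what its order there can show.

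CGA and TSHB had r = 0.572 (permutation p = 0.0231, adjusted p = 0.116) and rho = 0.6 (permutation p = 0.0171, adjusted p = 0.0855). It was 0.58 without NK1 and HC4, and 0.659 and 0.467 within slides. FSHB and PRL had r = 0.382 (permutation p = 0.144, adjusted p = 0.48) and rho = 0.147 (permutation p = 0.584, adjusted p = 0.913), and the relation rests on HC3, without which r was -0.183. Without HC3 and HC5, the arrays farthest from the median of FSHB, it was -0.0814. The remaining 7 pairs had r between -0.22 and 0.296 with adjusted permutation p of 0.483 or more, and their adjusted p for rho was 0.393 or more.

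The other genes of the pituitary axis were taken from lists, written with earlier results of these data known. Of 21 further markers of the anterior pituitary, 9 were on the array and 7 were tested. POU1F1, the transcription factor of growth hormone, prolactin and thyrotropin cells, was well above background on 1 array (HC2, at -5.64), and GNRHR, the receptor through which gonadotropin-releasing hormone acts on gonadotrophs, on 0 arrays. GHRHR, the pituitary receptor for growth hormone-releasing hormone, was above background on 4 arrays and NR5A1, a transcription factor of gonadotrophs, on 3, whereas POMC was above background on all 16. The summed level of the 9 markers, relative to the 75th percentile on a linear scale, ranged from 1.17 to 2.44 in NC, 1.69 to 6.01 in NK, 1.04 to 4.82 in HC and 2.39 to 2.69 in HK. Most of this sum was POMC, which arcuate neurons express too, and the other 8 markers summed to 0.125 to 0.193 in NC, 0.166 to 0.318 in NK, 0.114 to 0.198 in HC and 0.0784 to 0.174 in HK. The defining markers of the pars distalis GH and POU1F1 were thus at or near background on nearly all arrays, while LHB, PRL and CGA probes gave signal on most.

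Of these 7 tested markers, TRHR, the receptor for thyrotropin-releasing hormone, was lower in HK than in NK by 1.92 log2 units (log2 difference -1.92 ± 0.66, SE, unadjusted p = 0.011, adjusted p = 0.411 in limma), and none was called in the other comparisons. It averaged -4.95 in HK and -3.03 in NK, and the difference was -1.06 without HK1. In HK against NK, 1 of the 7 was thus called, beside 8.69% of all tested probes. The median difference of the 7 was 0.20 for HC against NC, 0.42 for NK against NC, 0.16 for HK against HC and -0.08 for HK against NK.

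Of 28 genes of the gonadotropin axis, 20 were on the array and 18 were tested. In HC against NC, 1 of the 18 was called, beside 8.15% of all tested probes. STAR, which carries cholesterol into mitochondria for steroid synthesis, was the only gene called, in HC against NC (unadjusted p = 0.000174, adjusted p = 0.272 in limma). It was well above background on all 5 HC arrays and on none of NC, at least 1.67-fold higher in HC (mean -5.15 against a limit of -5.89 and a measured NC mean of -7.26). Of 6 receptors of the pituitary hormones, 4 were tested. Of these, 1 was called in HC against NC, 1 in HK against HC and 1 in HK against NK. The shares of all tested probes called there were 8.15%, 7.04% and 8.69%. TSHR, the thyrotropin receptor, was higher in HC than in NC by 1.67 ± 0.64 (SE, unadjusted p = 0.0207, adjusted p = 0.521 in limma), with 1 of 3 NC arrays well above background, and the call was lost with normexp (0.45), with the deposited table (0.31) and on leaving out NC2 (1.33) or NC3 (1.48). GHR, the growth hormone receptor, was lower in HK than in HC (log2 difference -0.63 ± 0.27, SE, adjusted p = 0.698) and than in NK (-0.66 ± 0.28, SE, adjusted p = 0.537), both called unadjusted in limma. Both calls were lost on leaving out HK1 or HK3. The call against HC was also lost without HC1, HC3 or HC5 and with only HK and HC in the model. Against NK it was also lost without NK2 or NK3.

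No gene was called in any of the 4 comparisons among the 6 tested releasing and inhibiting factors, the 10 neuropeptide genes, the 2 astrocyte genes on the array, GFAP and AQP4, and the 3 genes of choroid plexus and blood. On the pars tuberalis and thyroid list 3 genes were tested, and TSHR was the gene called, in HC against NC. Of all tested probes, 8.15% were called in that comparison. MTNR1A, the melatonin receptor for which the pars tuberalis is known, was well above background on 0 arrays, and no probe named for EYA3, DIO2 or DIO3 was analysed here. The summed linear level of the choroid plexus and blood genes ranged from 8.35 to 19.4 in NC, 14.4 to 22.9 in NK, 5.5 to 28.7 in HC and 8.72 to 14.3 in HK, and its part in the hormone gene levels was not tested.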

How the data were processed

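Scanner files of 16 1-color arrays were used. Per the file headers they were written by Feature Extraction 10.1.1.1 and hold intensity values for 15744 spots. That software subtracted background within each array, and the deposited intensity values carry no normalization between arrays. The authors also deposited a table of log2 values with no stated method, whose array medians lay between 8.473 and 8.475, and it was used as an alternative.

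The 536 control spots and outlier spots (0.0801% of the others) were left out. The 75th percentile of each array's log2 processed signal was subtracted and spots of a probe were averaged. Probes with a signal well above background on 3 arrays or more were tested with limma 3.58.1 in R 4.3.3, on all 16 arrays in 1 model of 4 groups (13.7 total degrees of freedom), two-sided, at an unadjusted p under 0.05 (the study's methods give this threshold for limma without naming an adjustment), and with Benjamini-Hochberg adjustment over 12249 probes. Exact permutation tests used only the groups compared. Correlations were computed in Python 3.11.15, with two-sided permutation p-values from 100000 resamples. Where no array of a group was well above background, a limit is given. It is the mean over that group's arrays of the level of the faintest probe above background or, if higher, of the probe itself. The procedures were tested on simulated data.

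RefSeq accessions were matched to symbols of the assembly ARS-UI_Ramb_v3.0, for 726 of 750 probes that carried one. Remaining names come from the design of the array, and the files give no genome build. The genes named are the hormone genes, the 5 named genes most correlated with the brightest probe of each, and list genes called in a comparison. A gene is represented by its brightest probe. The hormone genes and the 8 other lists were chosen with earlier results of these data known. Same-numbered replicates were not treated as pairs. Alternatives are given in the closing section. The number of arrays limits the precision.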

Additional observations from a re-analysis of the deposited data

Results flagged for a closer look

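Among the hormone probes and the named genes given beside them, 98 groups of 4 or 5 arrays were examined for an array far from the others, and 6 held such an array. Chance flags about 1 in 20 groups. PRL was far above the rest of HC on HC3 by both of its probes, at -0.98 where the other HC arrays lay between -4.65 and -3.59, and at -1.39 where they lay between -5.73 and -4.56. HOXA7, the named gene most like PRL, was also far above the rest on HC3, at -2.68 against -5.43 to -4.97. TSHB stood apart on HK1, at -4.52 against -8.38 to -8.07, and NEUROD1, the named gene most like it, did so on the same array, at -0.21 against -2.98 to -2.83. HOXA7 and NEUROD1 were picked for their likeness over these same arrays, so an outlying array shared with them is no separate evidence. A GH probe stood apart on NK3, at -7.12 against -8.05 to -7.93, and was below background on all of these arrays. STAR had a ketamine difference that was lower after hypoxia than after normoxia, with an interaction of -1.43 on the log2 scale (unadjusted p = 0.0269, adjusted p = 0.994 in limma). The unadjusted call was lost after quantile normalization (-1.17), under normexp (-0.22), in the deposited table (-0.12) and on leaving out NC1, NC2, NK3 or HK3 (-1.29 to -1.13), and no NC or NK array gave it a signal well above background.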

How the results depend on the processing

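The alternatives were quantile normalization, normexp background correction with an offset of 50, the deposited value table, centring on probes above background on all arrays, no filter or a stricter filter on dim probes, slide or replicate number as a term, array quality weights, only the 2 groups compared, another probe of the gene, and each array left out in turn. The normexp setting included quantile normalization after the background correction, so the 2 steps cannot be told apart in it. Under the stricter filter FSHB, TSHB, CGA and PRL gave no value. For the interaction and the test among 4 groups a fit of fewer groups does not exist. Of 831 differences recomputed, 728 counted as unchanged, 39 kept only the direction and 64 changed sign. Unchanged meant the same direction and the same side of the threshold, except for differences within a slide, which have no p. Where the main result was not called, these counted as unchanged if they lay within the within-group SD of it, whatever their sign. Such turns of sign within slides are therefore not among the 64. Where the cause of a change is not named, the cause was not tested.

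For LHB, HK exceeded HC by 0.16 after quantile normalization, 0.14 under normexp, 0.14 in the deposited table and 0.19 with only those 2 groups, and HK exceeded NK by 0.15 with normexp, 0.15 with the deposited table and 0.21 with only those 2 groups, all of them no longer called. The other LHB probe gave -0.34, -0.39 and, for the interaction, -0.76. The p of any difference among the groups for LHB was 0.0607 after quantile normalization, 0.171 under normexp, 0.145 in the deposited table, 0.0606 with no filter, 0.054 with slide as a term and 0.493 by the other probe. With 1 array left out, HK exceeded HC by 0.15 to 0.24 and NK by 0.16 to 0.26, and the p among the groups ran from 0.0226 to 0.157.

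The sign of CGA differences was not stable. HC against NC was 0.15 with normexp, 0.22 with the deposited table and 0.029 with slide as a term. HK against NK was -0.070, -0.13 and, with array weights, -0.39. The interaction was -0.22 with normexp, -0.35 with the deposited table and -0.38 with array weights. With 1 array left out, CGA ran from -1.45 to 0.78 for HC against NC, from -1.13 to 1.64 for NK against NC, from -0.27 to 1.51 for HK against HC, from -1.14 to 1.20 for HK against NK and from -0.97 to 1.80 for the interaction. FSHB in NK against NC was -0.20 after quantile normalization, -0.072 under normexp and -0.023 in the deposited table, in HK against HC 0.0068 with the other centring, and its interaction 0.18 with quantile normalization. With 1 array left out it ran from -0.28 to 0.72 for NK against NC, from -0.65 to 0.71 for HK against HC and from -0.73 to 0.65 for the interaction. PRL in NK against NC was -0.044 with slide as a term, and with 1 array left out it ran from -0.22 to 0.38 there and from -0.11 to 0.63 for HK against NK.

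With the replicate number as a block, CGA was 0.85 for HC against NC, -0.023 for HK against HC and -0.51 for the interaction. The LHB differences of HK were 0.15 from HC and 0.21 from NK under this block and stayed called. GHR lost its call in HK against HC (-0.51), and no other call on a hormone gene changed. Deviations of same-numbered arrays had correlations from -0.0599 to 0.347 (median 0.224, with 15 of 21 pairs over 0.1), against a median of -0.0979 for different numbers, and 9 of 16 arrays correlated best with their own number. Arrays of the same number always lay on the same slide, whereas many arrays of different numbers did not. A likeness by number can therefore not be told apart from a likeness by slide here, and the replicate block takes up slide as well. The labels name no pairing and not every pair passed 0.1, so the numbers were not taken as pairs.

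Among the relations, CGA and LHB had r = -0.0589 as deviations from the group means, CGA and TSHB had 0.659 and 0.467 within slides, LHB and TSHB had 0.119 without the 2 farthest arrays, and FSHB and PRL had -0.0814 without the 2 farthest arrays, 0.883 within slide 2, 0.775 with the deposited table and 0.695 with normexp. With 1 array left out, r ran from -0.109 to 0.151 for CGA and LHB, from -0.0331 to 0.35 for CGA and PRL, and from -0.183 to 0.619 for FSHB and PRL. Counts of all probes called changed by over 1.5 times for NK against NC (88 with normexp, 85 with the stricter filter, 279 with array weights, 220 with 2 groups, and up to 232 with 1 array left out), HC against NC (620 without NC2), HK against HC (522 with 2 groups, 507 without HK3), HK against NK (1684 with weights), the interaction (786 with weights) and the test among the groups (1956 with weights). STAR was higher in HC than in NC by 0.40 with normexp and 0.24 with the deposited table, and still called. Signals near background limit FSHB, TSHB and GH, where most arrays give no level above background.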
